A study of Homo sapiens with 12 samples.

Results

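The NF-kappaB family and its feedback inhibitors were described as 10 genes out of the 19489 measured: the subunits NFKB1, NFKB2, RELA, RELB and REL, and the inhibitors NFKBIA, NFKBIB, NFKBIE, TNFAIP3 and BIRC3. Members were found by their symbol in the annotation of the C32 results table, the value of the brightest probeset stood for each gene, and all 10 were measured on all 12 arrays. Total RNA came from C32 and WM266-4, established human melanoma lines grown in the same DMEM medium with fetal calf serum and antibiotics. Each line carried either the empty lentiviral vector (EV) or a vector for secretogranin II, a protein of secretory granules (SCG2 OE). Both vectors passed through the same transduction and antibiotic selection, so the EV cells are the control for the vector and the selection. The 4 groups were C32 EV, C32 SCG2 OE, WM266-4 EV and WM266-4 SCG2 OE, with 3 arrays in each. The labels call these biological replicates, nothing says whether they were transduced separately, and the p-values measure only the spread between them.

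NF-kappaB is a family of dimeric transcription factors that is held in the cytoplasm of resting cells by IkappaB proteins. In the canonical pathway the IKK complex phosphorylates IkappaB, which is then degraded, and dimers such as that of RELA with the processed product of NFKB1 enter the nucleus. In the non-canonical pathway the NFKB2 precursor is processed and its product acts with RELB. The factors induce their own inhibitors, among them NFKBIA, TNFAIP3 and BIRC3, so that transcripts of these genes are used as a readout of the pathway, and melanoma cells are known for raised NF-kappaB activity. The arrays measured RNA and neither the nuclear protein nor its binding.

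The promoters of the members are shown because several of these genes are textbook targets of the factor they encode or inhibit. RefSeq windows on GRCh38.p14, from 250 bases before to 50 bases after an annotated gene start, were given for 8 of the 10 members, with 13 windows among them. RELB and NFKBIE had no entry. The NF-kappaB consensus decamer, searched on both strands, was present in at least 1 window of 7 of these 8 members, and in 8 of the 13 windows. Among all genes with a window, 13.3% of 27305 held it, as did 11.3% of the 35116 windows. The stretches with the decamer follow, 5′ to 3′ on the strand of the gene, each line with its own matched bases in capitals and up to 15 bases on each side in lower case. Runs of 11 capitals are overlapping matches on opposite strands.
NFKB1 at chr4:102501295-102501334, plus strand: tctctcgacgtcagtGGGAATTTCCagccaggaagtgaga
NFKB2 at chr10:102394456-102394496, plus strand: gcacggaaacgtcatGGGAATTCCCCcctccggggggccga
NFKB2 at chr10:102394485-102394524, plus strand: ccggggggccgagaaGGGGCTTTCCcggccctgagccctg
NFKB2 at chr10:102395514-102395553, plus strand: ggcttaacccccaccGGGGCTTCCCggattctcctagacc
NFKB2 at chr10:102395669-102395708, plus strand: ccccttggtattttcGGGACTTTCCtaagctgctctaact
REL at chr2:60881512-60881552, plus strand: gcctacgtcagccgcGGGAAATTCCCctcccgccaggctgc
NFKBIA at chr14:35404806-35404845, minus strand: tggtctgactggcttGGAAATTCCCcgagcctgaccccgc
NFKBIB at chr19:38899926-38899966, plus strand: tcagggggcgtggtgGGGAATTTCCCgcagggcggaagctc
TNFAIP3 at chr6:137867177-137867216, plus strand: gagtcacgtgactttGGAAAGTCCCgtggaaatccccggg
TNFAIP3 at chr6:137867189-137867228, plus strand: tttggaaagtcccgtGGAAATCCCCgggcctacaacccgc
BIRC3 at chr11:102317270-102317309, plus strand: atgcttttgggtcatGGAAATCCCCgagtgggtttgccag
BIRC3 at chr11:102317334-102317373, plus strand: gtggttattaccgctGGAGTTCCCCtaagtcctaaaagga

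Counted from the gene start, the match ran from position -49 to -40 in NFKB1, from -47 to -37 in REL and from -81 to -72 in NFKBIA, so that all lay close upstream of the start. The nearest matches of NFKB2 and TNFAIP3 began at -21 and -55, and those of BIRC3 farther away, at -199 and -135. A further match in NFKBIB began at position 39, after its start, and is not printed. Both RELA windows were without a match to the decamer, which says only that those letters are not in these windows. A match is a description of sequence, and binding was not measured.

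The arrays gave values on the log2 scale after robust multi-array averaging (RMA), a normalization that puts all arrays on a common distribution. Array medians lay between 6.94 and 7.08. Those of C32 EV, from 6.94 to 6.97, were all below those of C32 SCG2 OE, from 7.03 to 7.04. SCG2 itself was higher in SCG2 OE in both lines, by 7.63 log2 units in C32, where its EV mean of 4.96 was dim by the bound of 5 used here, and by 5.05 in WM266-4. All 7 melanoma and melanocyte markers had a group mean of at least 5 in every group, and the mean of the 7 ranged from 10.29 to 11.33 over the arrays. Replicate 3 of WM266-4 SCG2 OE stood apart, with a standard deviation over probesets of 2.14 where the other arrays had 2.27 to 2.31. It held the lowest or highest value of its group for 84.1% of all genes and for 8 of the 10 members: NFKB1, NFKB2, RELA and BIRC3 were lowest there, and RELB, REL, NFKBIA and TNFAIP3 were highest. The members' differences in WM266-4 are therefore given with and without it.

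In C32, SCG2 OE went with less RNA of NFKB1, RELA and NFKBIA, and with more RNA of REL. These 4 of the 10 members passed the threshold of 0.05 on the adjusted p (limma, Benjamini-Hochberg over all genes), 1 of them higher and 3 lower. Among all genes, 22.4% passed in this comparison, 11.5% higher and 10.9% lower. The median log2 fold change of the 10 members was -0.13, where that of all genes was 0.01. In RNA from whole cultures, fewer expressing cells and less RNA per cell cannot be told apart.

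NFKB1 encodes the precursor of a DNA-binding subunit of the canonical dimer. Its log2 values in C32 were 8.78, 8.72 and 8.93 on the EV arrays and 8.33, 8.17 and 8.06 on the SCG2 OE arrays. Every SCG2 OE array lay below every EV array. NFKB1 fell by 0.63 log2 units (SE 0.11, adjusted p = 0.00435 by limma), a fold of 1.55 downward, and it kept its call under all 16 alternative settings, with adjusted p from 0.000682 to 0.0447. This was the only member called lower under every one of them.

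RELA encodes the subunit with the main activation domain of the canonical dimer. It read 9.44, 9.53 and 9.66 on the C32 EV arrays and 9.21, 9.20 and 9.18 on the SCG2 OE arrays. The SCG2 OE arrays lay close together and below all EV arrays. RELA fell by 0.35 (SE 0.09, adjusted p = 0.0275 by limma). The call was held in 9 of 16 alternatives: it was lost with adjusted p of 0.365 in the fit of all 12 arrays and 0.0605 with the replicate number as a block. It was also lost without C32 EV replicate 2 (0.0619) or 3 (0.0952), and without C32 SCG2 OE replicate 1 (0.0542), 2 (0.0791) or 3 (0.0672).

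REL, a subunit best known from lymphocytes, moved the other way. Its values were 7.14, 6.89 and 7.09 on the C32 EV arrays, and 7.36, 7.78 and 7.82 on the SCG2 OE arrays. The groups did not overlap, with replicate 1 of SCG2 OE nearest to the EV arrays. REL rose by 0.61 (SE 0.14, adjusted p = 0.0157 by limma), a fold of 1.53. The call was held in 11 of 16 alternatives. It was lost in the fit of all 12 arrays (0.0517), under the unmoderated Student's test (0.0949), and without C32 EV replicate 2 (0.0522) or C32 SCG2 OE replicate 2 (0.0610) or 3 (0.0532).

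The partners of the non-canonical dimer did not pass the test in C32. NFKB2 read 8.08, 8.19 and 8.20 in EV and 8.18, 8.16 and 8.24 in SCG2 OE, so that the groups overlapped within a narrow band. Its difference was 0.04, with a 95% interval from -0.16 to 0.23. RELB read 5.78, 6.41 and 6.22 in EV and 6.29, 6.29 and 6.54 in SCG2 OE. EV replicate 1 lay below the rest and the other values overlapped. The difference for RELB was 0.23, with an interval from -0.14 to 0.60, and 0.05 without EV replicate 1.

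NFKBIA encodes IkappaB alpha, the inhibitor that resets the canonical pathway and is itself among its fastest targets. Its values in C32 were 8.95, 9.21 and 9.08 in EV and 8.65, 8.61 and 8.48 in SCG2 OE. The SCG2 OE arrays were all lower. NFKBIA fell by 0.50 (SE 0.10, adjusted p = 0.0102 by limma), a fold of 1.41 downward. Of 16 alternatives, only the fit of all 12 arrays took away the call (0.0788).

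The other IkappaB genes did not pass the test in C32. NFKBIB, which encodes IkappaB beta, read 5.98, 5.39 and 6.03 in EV and 5.61, 5.04 and 5.03 in SCG2 OE. The groups overlapped through EV replicate 2 and SCG2 OE replicate 1. The difference of -0.57 had an adjusted p of 0.0863 by limma, and NFKBIB was called in 4 of 16 alternatives: with array weights (0.0258), with the block (0.0433), and on leaving out EV replicate 2 (0.0275) or replicate 1 of SCG2 OE (0.0301). NFKBIE, which encodes IkappaB epsilon, read 7.21, 7.37 and 7.30 in EV and 7.18, 7.01 and 7.07 in SCG2 OE. Its groups were separated by a small gap. The difference of -0.21 had an adjusted p of 0.152, which passed the threshold only when arrays were centred on their medians (0.0486).

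TNFAIP3 encodes a ubiquitin-editing enzyme that shuts off signalling above IKK, and BIRC3 encodes a ubiquitin ligase of tumour necrosis factor receptor complexes. TNFAIP3 read 8.33, 8.34 and 8.17 in C32 EV and 8.41, 9.02 and 9.28 in C32 SCG2 OE. All SCG2 OE arrays lay above the EV arrays, with replicate 1 only just above them. The difference of 0.62 (SE 0.20) missed the threshold with an adjusted p of 0.0579 by limma. Without SCG2 OE replicate 1 it was 0.87 (adjusted p = 0.00335), and TNFAIP3 was also called with dim genes left out (0.0426), with an intensity trend (0.0205) and with array weights (0.0182). BIRC3 read 4.21, 4.21 and 4.53 in EV and 4.49, 3.76 and 4.53 in SCG2 OE. These values lay under the bound for dim genes, the groups overlapped, and the difference was -0.05, with an interval from -0.52 to 0.42.

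**Figure D1:**
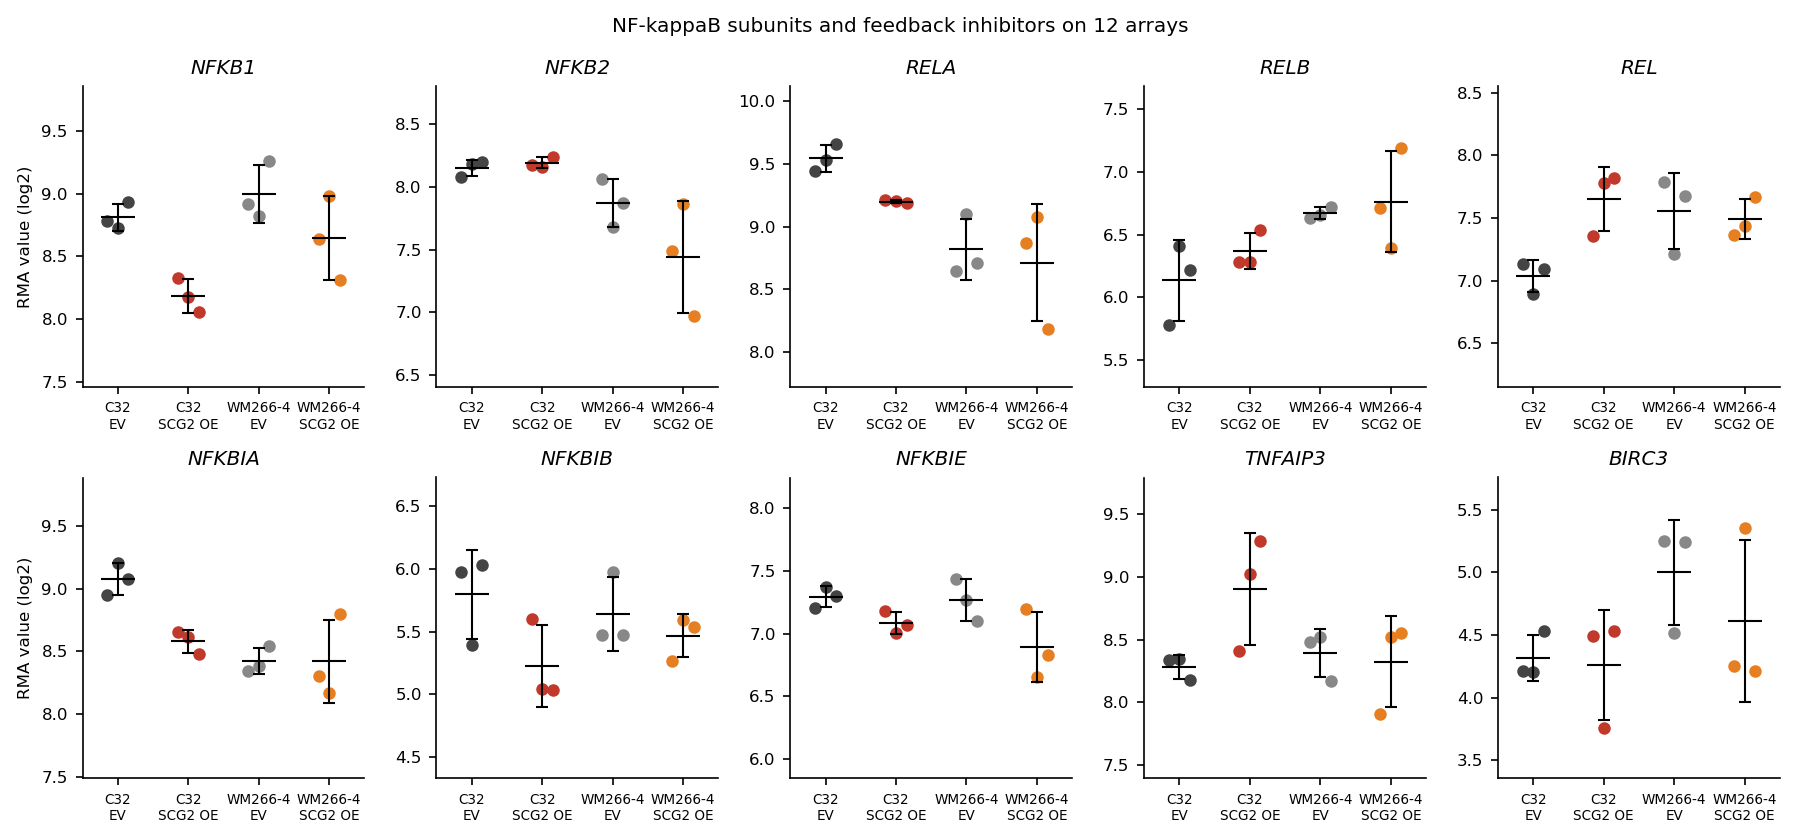
RMA value (log2) of each member on each of the 12 arrays, as points for the 3 replicates of each group with the group mean (bar) and SD (whisker), every panel spanning the same number of log2 units. In C32 all SCG2 OE arrays lie below the EV arrays for NFKB1, RELA, NFKBIA and NFKBIE and above them for REL and TNFAIP3, while in WM266-4 the groups overlap for all 10 members.

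In C32, the SCG2 OE arrays thus lay wholly above the EV arrays for 2 members and wholly below for 4. Across all genes 19.8% lay wholly above and 19.8% wholly below. NFKB1, RELA and NFKBIA were called lower and REL higher, with RELA and REL called in only 9 and 11 of 16 alternatives. NFKBIB and NFKBIE were lower and TNFAIP3 higher on average without passing the test. The members of the non-canonical dimer gave intervals that hold 0. Marker lists of other cell types were read in the same comparison, where 22.4% of all genes were called. The mean of 5 T and B cell and macrophage markers was 5.80 to 5.94 on EV arrays and 6.06 to 6.40 on SCG2 OE arrays, with 1 of 5 called (CD68, 1.37 higher). The mean of 5 endothelial and fibroblast markers was 5.15 to 5.31 and 5.44 to 5.89, with 1 of 5 called (PDGFRB, 0.48 higher). LUM, in the same list, was 1.435 higher without passing (adjusted p = 0.122 by limma). The mean of 3 epithelial markers (KRT5, KRT14 and EPCAM) was 5.49 to 5.73 and 5.22 to 5.57, with 1 of 3 called (EPCAM, -0.36). Of the 7 melanoma and melanocyte markers, PMEL (5.75) was called higher and DCT (-1.34) and TYR (-1.42) lower. PTPRC, a leukocyte marker, averaged 3.75 in EV and 3.89 in SCG2 OE, both under the bound of 5 for dim genes. EPCAM, with 4.03 and 3.67, lay under it as well, as did PDGFRB in EV with 4.55. The part of these marker differences in those of the members was not tested.

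In WM266-4, no member passed the threshold in the fit without pairing, where 0.154% of all genes did (limma, Benjamini-Hochberg). No member had an unadjusted p under 0.05 either, which 4.64% of all genes had, and the count was 0 under each of the 16 alternatives. In this line arrays of the same replicate number varied together, which this fit and its intervals leave out. With the replicate number as a block, limma called 147 genes and again no member, the lowest unadjusted p being 0.052 for NFKBIE. The Student's test called none of the 19489 genes in this line, SCG2 included, so the count of 0 under it says nothing about the members. The log2 fold change was negative for 9 of the 10 members, between -0.43 for NFKB2 and -0.002 for NFKBIA, and their median was -0.14 where that of all genes was 0.01. The arrays of the groups overlapped for every member, where they were apart for 10.3% of all genes. None of the 20 markers was called in this line.

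NFKB1 read 8.92, 8.82 and 9.26 on the WM266-4 EV arrays and 8.64, 8.98 and 8.31 on the SCG2 OE arrays. Its difference of -0.36 had a 95% interval from -0.85 to 0.14, and without SCG2 OE replicate 3 it was -0.19. NFKB2 read 8.07, 7.68 and 7.87 in EV and 7.49, 7.86 and 6.97 in SCG2 OE. SCG2 OE replicate 3 was by far the lowest of these 6 arrays. The NFKB2 difference was -0.43 (interval -0.98 to 0.12) with that array and -0.20 without it. RELA read 8.65, 9.10 and 8.71 in EV and 8.87, 9.08 and 8.18 in SCG2 OE. Here too replicate 3 was lowest, and its removal turned the RELA difference from -0.11 to 0.16. RELB differed by 0.09 (interval -0.40 to 0.58), and by -0.12 without replicate 3. REL differed by -0.07 (interval -0.52 to 0.38), and by -0.16 without it.

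Among the inhibitors, NFKBIA read 8.34, 8.38 and 8.54 in WM266-4 EV and 8.30, 8.17 and 8.79 in SCG2 OE. The SCG2 OE arrays surrounded the EV arrays. The difference was -0.002 (interval -0.46 to 0.45), and -0.19 without SCG2 OE replicate 3. NFKBIE read 7.44, 7.27 and 7.10 in EV and 7.20, 6.66 and 6.83 in SCG2 OE. Its groups overlapped, but with arrays matched by replicate number it was lower in 3 of 3 pairs, by 0.24, 0.61 and 0.27 log2 units. NFKBIE was the only member with 3 pairs of the same sign, where 17.2% of all genes were lower and 15.9% higher in every pair. Its adjusted p was 0.914 without the pairing and 0.50 with the replicate number as a block, the lowest of any member in that fit. The difference was -0.37, and -0.34 without SCG2 OE replicate 3.

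The remaining inhibitors varied more between the arrays of a group than between groups. NFKBIB differed by -0.18 (interval -0.62 to 0.27), and by -0.21 without SCG2 OE replicate 3. TNFAIP3 read 8.48, 8.52 and 8.17 in WM266-4 EV and 7.90, 8.52 and 8.55 in SCG2 OE, and differed by -0.07 (interval -0.56 to 0.43), or by -0.18 without SCG2 OE replicate 3. BIRC3 read 5.25, 4.52 and 5.24 in EV and 4.25, 5.35 and 4.22 in SCG2 OE. Replicate 2 was the odd array in both BIRC3 groups, low in EV and high in SCG2 OE. Its difference of -0.39 had the widest interval of the members, from -1.2 to 0.37. It was -0.20 without SCG2 OE replicate 3, -0.77 without SCG2 OE replicate 2 and -0.64 without EV replicate 2, and between -0.22 and -0.27 on leaving out each of the other 3 arrays.

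**Figure D2:**
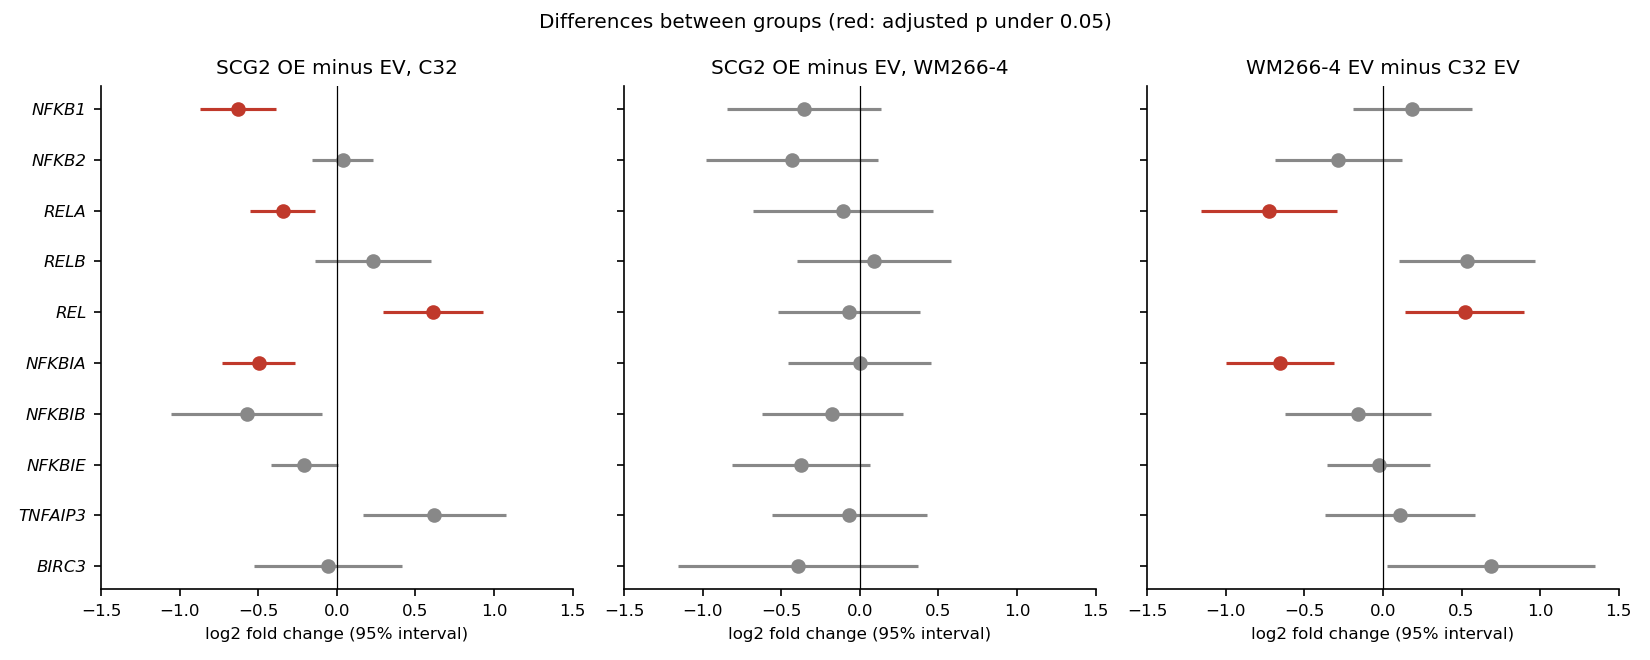
Log2 fold change of each member with its 95% interval (limma) for SCG2 OE against EV in C32, SCG2 OE against EV in WM266-4, and WM266-4 EV against C32 EV, in red where the adjusted p was under 0.05. In C32 the 4 called members are NFKB1, RELA, REL and NFKBIA, in WM266-4 none is called, and between the EV groups RELA, REL and NFKBIA are called.

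A call in C32 and none in WM266-4 does not show that the lines responded differently, so the difference between the effects was tested as the interaction. No member passed, where 2.76% of all genes did (limma, Benjamini-Hochberg), nor did any under the alternatives. This fit also leaves out the pairing in WM266-4. With the replicate number as a block within each line, 859 genes passed and again no member. An unadjusted p under 0.05 was found for 3 of 10 members and for 14.5% of all genes. These were REL, whose effect in WM266-4 minus that in C32 was -0.68 (adjusted p = 0.208), TNFAIP3 with -0.69 (0.335) and NFKBIA with 0.49 (0.336). For NFKB1 the difference of 0.27 had an interval from -0.26 to 0.81.

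The lines differed before SCG2 was added. Of the 10 members, 3 were called between WM266-4 EV and C32 EV, 1 higher and 2 lower in WM266-4, where 27.9% of all genes were called (limma, Benjamini-Hochberg). This comparison uses the EV arrays that the comparisons within the lines use, so its values are set beside theirs and not counted as separate support. NFKBIA averaged 9.08 in C32 EV and 8.42 in WM266-4 EV, and the groups did not overlap. It was lower in WM266-4 by 0.66 log2 units (log2 fold change -0.66, SE 0.16, adjusted p = 0.00718) and was called in 15 of 15 alternatives. The NFKBIA mean of C32 SCG2 OE, at 8.58, lay between the EV means of the lines.

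RELA averaged 9.54 in C32 EV and 8.82 in WM266-4 EV, with every WM266-4 array below every C32 array. The difference of -0.72 (SE 0.20, adjusted p = 0.0151 by limma) was called in 12 of 15 alternatives, and was lost without C32 EV replicate 3 (0.0608) or WM266-4 EV replicate 1 (0.0605) or 3 (0.0509). REL averaged 7.04 in C32 EV and 7.56 in WM266-4 EV. The groups did not overlap, and the difference was 0.52 (SE 0.18, adjusted p = 0.0422). This call was the least steady, held in 7 of 15 alternatives. It was lost by centring the arrays on their medians (0.0891), by repeated quantile normalization (0.113), with array weights (0.0573), and without C32 EV replicate 1 (0.0701), 2 (0.146) or 3 (0.0837) or WM266-4 EV replicate 1 (0.160) or 3 (0.121). Centring moves the median of all genes in this comparison from -0.01 to -0.11.

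RELB and BIRC3 were higher on average in WM266-4 EV without passing the test. RELB averaged 6.14 in C32 EV and 6.67 in WM266-4 EV and its arrays did not overlap. The difference of 0.54 had an adjusted p of 0.0633 by limma, and it passed in 4 of 15 alternatives. These were array weights (0.0300), a fit of the EV arrays alone (0.0400), the block on those arrays (0.0409) and leaving out C32 EV replicate 2 (0.0443). BIRC3 averaged 4.31 and 5.0, and its difference of 0.69 had an adjusted p of 0.120. This was 0.0385 in the fit of the EV arrays alone and 0.0215 with the block on those arrays. Markers called in the same comparison were PMEL (6.15), TYR (1.77), CD68 (1.45) and PDGFRB (0.52), higher in WM266-4 EV, and MLANA (-5.79), LUM (-1.62) and EPCAM (-0.50), lower, and their part was not tested. Of these, EPCAM was dim in both groups (4.03 and 3.53), PDGFRB in C32 EV (4.55) and LUM in WM266-4 EV (3.48). The intervals of NFKB1, NFKB2, NFKBIB, NFKBIE and TNFAIP3 held 0. Of the 10 members, 2 lay wholly above and 3 wholly below in WM266-4 EV, where 22.3% and 23.0% of all genes did.

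Set in order of the 4 group means, the members fell into several patterns. For RELA the order from low to high was WM266-4 SCG2 OE, WM266-4 EV, C32 SCG2 OE and C32 EV, with means of 8.71, 8.82, 9.20 and 9.54. The WM266-4 groups overlapped, and the other neighbours did not. NFKBIA had the same order, with means of 8.42, 8.42, 8.58 and 9.08, and there C32 EV alone stood clear of its neighbour. For NFKB1 the order was C32 SCG2 OE, WM266-4 SCG2 OE, C32 EV and WM266-4 EV, with means of 8.19, 8.64, 8.81 and 9.0. Each of these NFKB1 neighbours overlapped. REL and TNFAIP3 shared an order, with C32 EV lowest and C32 SCG2 OE highest. For REL, C32 EV lay apart from the other 3 groups, which overlapped, and for TNFAIP3 all neighbours overlapped. The range of group means ran from 0.40 log2 units for NFKBIE to 0.83 for RELA.

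The 3 members with the widest range of group means were RELA, NFKB1 and NFKB2. For each, the genes with the most similar profile over the 12 arrays were found by the root mean square (RMS) difference of log2 values, each centred on its own mean. Only genes with a mean log2 value of at least 5 were compared. RELA was nearest to PRDX3, a mitochondrial peroxiredoxin, and to VCF1, with RMS differences of 0.09 and 0.10 log2 units. The median over the compared genes was 0.48. NFKB1 was nearest to KBTBD6 (0.11) and EMC7 (0.13), where the median was 0.45. NFKB2 was nearest to the histone deacetylase HDAC11 (0.11) and the long-chain acyl-CoA synthetase ACSL1 (0.12), where the median was also 0.45. These are likenesses over 12 arrays of 4 groups and show no shared control.

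The rest of the pathway was followed in lists of 77 genes. In C32, of 13 genes of the IKK complex and its upstream kinases, 1 rose and 4 fell, or 38.5% where 22.4% of all genes were called, with a median of -0.17. TAB2, an adaptor of the TAK1 kinase, rose by 0.47 (adjusted p = 0.00839). The genes that fell were IKBKG, the regulatory subunit of IKK, by 0.52 (0.0144), CHUK, a catalytic subunit, by 0.44 (0.0403), and the IKK-related kinases IKBKE by 0.35 (0.0316) and TBK1 by 0.40 (0.0383). IKBKG has a near-identical pseudogene copy and its value is uncertain. In the fit of all 12 arrays TAB2 (0.0985) and IKBKG (0.0940) lost their calls, as did IKBKE (0.137), TBK1 (0.149) and CHUK. Under the Student's test IKBKG (0.0740), IKBKE (0.0646), TBK1 (0.116) and CHUK did not pass, and with the replicate block IKBKE (0.0691), TBK1 (0.0558) and CHUK did not. Several of these calls were lost when an array was left out. IKBKG lost its call without C32 SCG2 OE replicate 2 (0.0577), and IKBKE lost it when any array but C32 EV replicate 3 was left out. TBK1 lost it without C32 EV replicate 1 (0.126) or 3 (0.108) or C32 SCG2 OE replicate 2 (0.0853) or 3 (0.111). CHUK, the fifth called gene of the list, was chosen after its values were seen, and lost its call when any array but SCG2 OE replicate 2 was left out.

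Of 21 receptors and adaptors, 2 rose and 2 fell in C32, or 19.0%, with a median of -0.13. TLR4, the receptor for lipopolysaccharide, rose by 0.82 (adjusted p = 0.0014) and TRAF1, an adaptor of tumour necrosis factor receptors, by 0.61 (0.0158). MYD88, the adaptor of most Toll-like receptors and of the interleukin-1 receptor, read 9.51, 9.58 and 9.57 in EV and 8.80, 8.58 and 8.86 in SCG2 OE. The groups were well apart and MYD88 fell by 0.80 (0.00124). TLR3, a receptor for double-stranded RNA, fell by 0.83 (0.0165). In the fit of all 12 arrays the calls of MYD88 (0.132), TLR3 (0.496) and TRAF1 (0.0512) were lost and that of TLR4 was not. TRAF1 (0.0956) and TLR3 (0.117) did not pass the Student's test, and TLR3 also lost its call without C32 EV replicate 3 (0.0582).

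Of 11 further inhibitors and nuclear IkappaB proteins, 2 rose in C32 and none fell, or 18.2%, with a median of 0.09. TAX1BP1, an adaptor that works with TNFAIP3, read 9.95, 10.07 and 10.05 in EV and 10.81, 10.76 and 10.78 in SCG2 OE. The groups were far apart and TAX1BP1 rose by 0.76 (adjusted p = 0.000669). ITCH, a ubiquitin ligase of the same complex, rose by 0.54 (0.00398). Both kept their calls under all 16 alternatives.

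Of 32 NF-kappaB target genes, 7 rose and 1 fell in C32, or 25.0%, with a median of 0.07. PTGS2, an enzyme of prostaglandin synthesis, read 9.64, 9.53 and 9.38 in EV and 7.16, 7.08 and 6.74 in SCG2 OE. The groups were widely separated and PTGS2 fell by 2.52 (adjusted p = 2.7e-05). CSF1, the growth factor of macrophages, rose by 1.14 (0.000596), the chemokine CXCL8 by 1.13 (0.0149) and the mitochondrial superoxide dismutase SOD2 by 0.37 (0.0160). IL1B read 5.09, 3.74 and 4.26 in EV and 5.91, 6.93 and 9.53 in SCG2 OE, a rise of 3.10 (0.0258) in which replicate 3 stood far above the others. Its EV mean of 4.36 lay under the bound of 5 for dim genes, so the size of the rise is uncertain. IL1B was called in 12 of 16 alternatives and not under the Student's test or without C32 EV replicate 2 or 3 or C32 SCG2 OE replicate 2. BCL2A1, EFNA1 and SDC4, which complete the called genes and were chosen after their values were seen, rose by 0.42, 0.34 and 0.42. They were called in 8, 5 and 7 of 16 alternatives, and each lost its call when any EV array of C32 was left out, as on leaving out SCG2 OE replicate 2. CXCL8 did not pass the Student's test (0.121), nor did BCL2A1, EFNA1 or SDC4. The calls of CSF1 (0.0517) and SOD2 (0.208) were lost in the fit of all 12 arrays, and that of SOD2 also without C32 EV replicate 1 (0.0563) or 3 (0.0512).

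In WM266-4, none of the 13 kinases, 21 receptors and adaptors or 11 further inhibitors was called, and their medians were -0.05, -0.15 and -0.01. Among the 32 targets 1 was called, or 3.12% where 0.154% of all genes were, and the median was -0.09. This gene was CXCL8, with 7.82, 7.46 and 7.61 in EV and 9.28, 10.48 and 9.66 in SCG2 OE. The groups were far apart and CXCL8 rose by 2.17 (SE 0.29, adjusted p = 0.0347 by limma). The call was lost without WM266-4 EV replicate 1 (0.118), 2 (0.200) or 3 (0.143) or WM266-4 SCG2 OE replicate 3 (0.0776). It was also lost under the Student's test (0.745), which called no gene in this line. Over all 16 alternatives the difference ranged from 1.84 to 2.44.

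**Figure D3:**
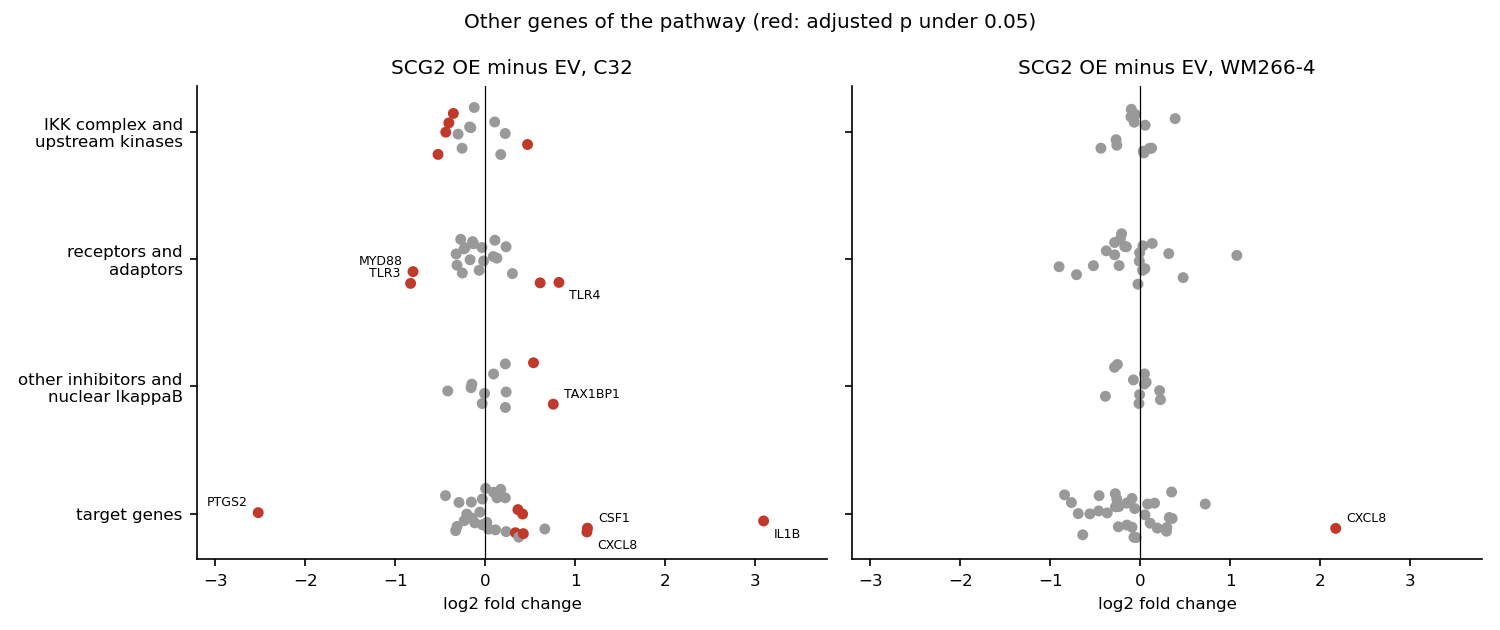
Log2 fold change of SCG2 OE against EV for each gene of the 4 pathway lists, in C32 (left) and WM266-4 (right), in red where the adjusted p was under 0.05 (limma), with vertical scatter only to separate the points. In C32 the called genes include PTGS2 at -2.52 and IL1B at 3.10, and in WM266-4 CXCL8 at 2.17 is the only called gene.

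Between the EV groups the same lists showed 4 of 13 kinases called (1 higher, 3 lower in WM266-4), 6 of 21 receptors and adaptors (1 higher, 5 lower), 5 of 11 further inhibitors (2 higher, 3 lower) and 14 of 32 targets (7 in each direction). Among all genes 14.4% were called higher and 13.5% lower. TRAF6, a ubiquitin ligase below MYD88, was lower in WM266-4 EV (log2 fold change -1.34, adjusted p = 0.00118 by limma), as were MALT1 (-0.99), LTBR (-0.70), CHUK (-0.96), IRAK4 (-0.77) and IKBKG (-0.81), and of these CHUK lost its call without C32 EV replicate 1 (0.0598). The deubiquitinase CYLD (-0.80) and the nuclear IkappaB protein BCL3 (-0.81) were lower as well. TAX1BP1 (0.96), ITCH (0.66), TAB2 (0.84) and TRAF3 (0.62) were higher. Among targets PTGS2 (-3.31), EFNA1 (-2.48) and GADD45B (-0.67) were lower, and LIF (2.41), a cytokine of the interleukin-6 family, was higher. The EFNA1 mean of 4.45 in WM266-4 EV lay under the bound of 5 for dim genes, so the size of its difference is uncertain.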

How the data were processed

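RNA of 4 groups was hybridised to Affymetrix Clariom S human arrays. The authors deposited log2 values after RMA for 21448 probesets on 12 arrays, and limma tables for each line (fold changes, p-values and statistics), of which only the probeset annotation was used. Probesets were named by RefSeq accession (18786) or symbol (1274), 1388 without a single gene name were left out, and the brightest probeset stood for each of 19489 genes. No source used here gives the build behind the probe annotation. GRCh38.p14 served for names and promoter windows.

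Following the study's methods, limma 3.58.1 (R 4.3.3) was run within each line, without pairing of the arrays. The interaction and the comparison of the EV groups came from a fit of all 12 arrays. P-values were adjusted by Benjamini-Hochberg over all genes, with a threshold of 0.05. The fits were tested on simulated data. The number of arrays limits the precision. Members and lists were chosen with earlier results of these data known. Named genes were the members, SCG2, up to 4 called genes of each list with the smallest p, and the nearest 2 profiles of 3 members. Alternatives were centring, repeated quantile normalization, no dim genes (mean under 5), the mean of probesets or every probeset, an intensity trend, array weights, a fit of all 12 arrays or of the EV arrays alone, the Student's test, the replicate block, and each array left out.

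After subtraction of the group means, EV and SCG2 OE arrays with the same number correlated over genes at 0.40, 0.26 and 0.35 in WM266-4, above the bound of 0.1 for pairing, and at 0.04, -0.03 and -0.06 in C32. What a number marks is not in the labels, so the pairing in WM266-4 rests on the values.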

Additional observations from a re-analysis of the deposited data

Results flagged for a closer look

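The effect of SCG2 OE differed between the lines for SCG2, TAX1BP1, PTGS2, CSF1 and IL1B. The test was the interaction in a limma fit of all 12 arrays with Benjamini-Hochberg adjustment. Apart from SCG2, these genes are given here because they passed it. They were 1 of the 11 further inhibitors and 3 of the 32 targets, with none of the 13 kinases or 21 receptors and adaptors. Among all genes 2.76% passed. For PTGS2 the effect in WM266-4 minus that in C32 was 2.575 log2 units (adjusted p = 7.95e-05): the gene fell by 2.52 in C32 and differed by 0.05 in WM266-4, where its EV arrays already read 6.18, 6.16 and 6.30. For SCG2 itself the difference was -2.584 (adjusted p = 0.00357). WM266-4 EV started higher, at 7.92 ± 0.55 (SD, n = 3) against 4.96 ± 0.61 in C32 EV, which lay under the bound of 5 for dim genes, and the SCG2 OE groups averaged 12.97 and 12.59. For TAX1BP1 the difference was -0.765 (adjusted p = 0.0312), from a rise of 0.76 in C32 and -0.01 in WM266-4. For CSF1 it was -1.902 (adjusted p = 0.0474), and WM266-4 SCG2 OE replicate 3 read 7.24 where the other arrays of that group read 8.64 and 8.78. For IL1B it was -3.784 (adjusted p = 0.0499), where the mean of 4.36 in C32 EV lay under the bound of 5 for dim genes, and C32 SCG2 OE replicate 3 read 9.53 where the others read 5.91 and 6.93. Over the 20 alternatives the call was lost in 10 for TAX1BP1 (adjusted p from 0.0155 to 0.0980), in 12 for CSF1 (0.00494 to 0.129) and in 15 for IL1B (0.00892 to 0.129), and in none for PTGS2 and SCG2. TAX1BP1 lost it on leaving out any array of C32, WM266-4 EV replicate 1 or 3, or WM266-4 SCG2 OE replicate 2. CSF1 lost it on leaving out any array of C32 or of WM266-4 EV, and IL1B on leaving out any array but C32 SCG2 OE replicate 1 or 3. No group had enough arrays for a single array to be tested as lying far from the others.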

How the results depend on the processing

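NFKB1, RELA, REL and NFKBIA kept their direction in every alternative in C32, as did NFKBIA, RELA and REL between the EV groups. The number of members called in C32, 4 as reported, was 1 in the fit of all 12 arrays and 2 to 5 with an array left out (2 without SCG2 OE replicate 2 or 3). This number was 6 with array weights, and 5 with centring, with dim genes left out and with an intensity trend. Between the EV groups the number of members called was 3 as reported, 5 with the EV arrays alone and 5 with the replicate block on those arrays. With an array left out it was 1 to 3 (1 without C32 EV replicate 3 or WM266-4 EV replicate 1 or 3). In WM266-4 and for the interaction it stayed at 0. Of all genes, 4361 were called in C32, with 1515 in the fit of all 12 arrays, 2580 by the Student's test and 2905 (without SCG2 OE replicate 2) to 4042 with an array left out. In WM266-4, 30 were called, with 137 under array weights, 170 in the fit of all 12 arrays, 0 by the Student's test and 10 to 37 with an array left out (10 to 16 without any array but SCG2 OE replicate 3). The interaction had 538, with 1104 under array weights and 305 to 788 with an array left out (305 to 354 without any array of C32 but SCG2 OE replicate 1). The fit with the replicate block called 147 genes in WM266-4 and 859 for the interaction. The block took the call of RELA in C32, where numbers do not pair the arrays, and gave one to NFKBIB in C32. Between the EV groups the block was fitted on the EV arrays alone, with numbers matched across the lines. RELB and BIRC3 were called there, but also in the limma fit of those arrays without the block (adjusted p = 0.0400 and 0.0385). The block changed no other call of a member. Centring the arrays moved the share of called genes that were higher from 51.2% to 34.5% in C32 (1691 higher, 3206 lower), from 31.8% to 42.0% for the interaction (207 and 286) and from 51.7% to 40.0% between the EV groups (2300 and 3453). Directions turned only where no call was made. In C32, NFKB2 was -0.048 with centring, and BIRC3 ranged from -0.19 to 0.20 with an array left out. In WM266-4, array weights gave RELA 0.026 and RELB -0.037, and quantile normalization gave NFKBIA 0.058. With an array of WM266-4 left out, RELA ranged from -0.29 to 0.16, RELB from -0.12 to 0.28, REL from -0.24 to 0.048, NFKBIA from -0.19 to 0.12 and TNFAIP3 from -0.18 to 0.14. For the interaction, array weights gave NFKBIE 0.006, and RELB ranged from -0.35 to 0.047 with an array left out. NFKBIE between the EV groups ranged from -0.11 to 0.057 with an array left out. Causes were not tested. With 3 arrays a group, intervals of the members in WM266-4 spanned about a log2 unit, and BIRC3 was dim.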

Other observations

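The symbol BIRC3 was carried by a second probeset, annotated as a circular RNA on the strand opposite to the gene. It averaged 3.35 log2 units over the 12 arrays, with a range from 2.93 to 3.91, and was not used for the gene. TLR3 read 7.55 and 7.48 on replicates 1 and 2 of WM266-4 SCG2 OE and 4.49 on replicate 3.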
